A study of Homo sapiens with 17 samples.

Results

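Cytosolic ribosomal protein genes were examined in BEAS-2B cells exposed to acetaldehyde. The members were all genes of the table named RPSA, RPLP0, RPLP1 or RPLP2, or RPL or RPS followed by a number and at most 2 further characters, without the S6 kinases and the Y-linked copies. The rule took 84 of 16884 genes, 32 of the small subunit and 52 of the large subunit, and used no measured value. Of these, 7 are paralogues whose symbol ends in L or L1: RPL22L1, RPL7L1, RPL26L1, RPL36AL, RPL39L, RPL3L and RPS27L. Messenger RNA was sequenced from 6 libraries of unexposed cells, 6 of cells given 10 mM and 5 of cells given 16 mM acetaldehyde for 24 h in bronchial epithelial growth medium. All libraries came from the same wild-type line. BEAS-2B is an immortalised line derived from human bronchial epithelium, and acetaldehyde is a reactive aldehyde formed from ethanol and present in tobacco smoke. No label states that the replicates are independent cultures: p-values refer to the spread among these libraries, which may be technical.

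A cytosolic ribosome carries 1 copy of almost every ribosomal protein on a scaffold of ribosomal RNA. The small subunit reads the message and the large subunit forms the peptide bond. Messages for ribosomal proteins usually begin with a run of C and T bases, the terminal oligopyrimidine tract, through which mTOR signalling and the protein LARP1 set their translation and stability together. Several ribosomal proteins have a paralogue that can stand in for them or is expressed in few tissues.

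Starts of 10 members named below are shown: 4 paralogues that moved, the partners of 3 of these (RPL7 is not shown) and the canonical members with the largest falls. No change in expression was tested against the start sequence. Each sequence is the RefSeq sequence of GRCh38.p14 on the gene's own strand, with 40 bases before the annotated start and 20 from it on, and capitals mark an unbroken run of at least 7 C or T bases that reaches within 5 bases of the start.
RPL22L1 (chr3:170870176-170870235, minus strand): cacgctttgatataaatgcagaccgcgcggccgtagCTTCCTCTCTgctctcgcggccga
RPL22 (chr1:6199576-6199635, minus strand): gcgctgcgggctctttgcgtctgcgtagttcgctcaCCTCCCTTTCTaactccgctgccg
RPL7L1 (chr6:42879576-42879635, plus strand): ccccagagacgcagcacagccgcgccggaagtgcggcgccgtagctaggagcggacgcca
RPS27L (chr15:63157458-63157517, minus strand): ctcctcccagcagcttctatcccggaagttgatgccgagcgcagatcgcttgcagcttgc
RPS27 (chr1:153990722-153990781, plus strand): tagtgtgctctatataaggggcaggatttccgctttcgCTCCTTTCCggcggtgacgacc
RPL26L1 (chr5:172958689-172958748, plus strand): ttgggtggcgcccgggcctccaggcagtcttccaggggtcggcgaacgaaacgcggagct
RPL26 (chr17:8383174-8383233, minus strand): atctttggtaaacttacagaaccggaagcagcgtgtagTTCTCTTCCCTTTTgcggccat
RPS9 (chr19:54200818-54200877, plus strand): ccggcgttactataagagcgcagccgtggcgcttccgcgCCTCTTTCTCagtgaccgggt
RPL41 (chr12:56116593-56116652, plus strand): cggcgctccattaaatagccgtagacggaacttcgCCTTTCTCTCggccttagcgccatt
RPL3 (chr22:39319604-39319663, minus strand): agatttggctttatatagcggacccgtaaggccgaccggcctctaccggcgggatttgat

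Such a run stood at the start of 55 of the 67 members with an entry in the RefSeq promoter table (82.1%), against 19.2% of all 27305 genes in it. It was found for 53 of 62 canonical members and for 2 of 5 paralogues. RPL22L1 has a run as its partner RPL22 does. In the paralogues RPL7L1, RPS27L and RPL26L1 and in the canonical RPL3 no run of that length reached within 5 bases of the start. RPL26L1 has more than 1 start in the table, and the first is shown.

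Library 1 of the 10 mM group stood apart from all the others, and the ribosomal protein genes were among the genes in which it differed. Its FPKM values (fragments per length of transcript and depth of library, as deposited) were a median of 3.12 times the mean of the other 10 mM libraries over 83 members, against 0.599 times over 9462 genes with at least 5 FPKM. The ratio followed the length implied by counts and FPKM: it was 2.05 for the 1021 other genes under 1 kb and 0.401 for genes of 2 kb and over. Of the 83 members, 62 were under 1 kb. Differences at 10 mM are therefore given with and without this library, and the fit over all 17 libraries also carries its spread into the 16 mM comparison. The remaining libraries formed pairs of close sets: libraries 1 to 3 and 4 to 6 of control, 2 to 4 and 5 to 6 at 10 mM, and 1 to 3 and 4 to 5 at 16 mM. The labels name no batch and do not tie a set of a group to a set of another group. Below, sets were matched across groups by the order of their library numbers. Libraries of a set lay closer to each other than to the rest of their group. The p-values of such comparisons rest on that small spread, which may be technical. Total counts per library were 15952673 to 18809242. KRT7, KRT8 and KRT18 were present in every library, while the epithelial markers EPCAM, CDH1, KRT5 and KRT19 stayed at or under 0.12 FPKM. Of 5 fibroblast markers in the table, PDGFRB averaged 12.7 FPKM in control, 5.58 FPKM at 10 mM and 3.50 FPKM at 16 mM, COL1A1 averaged 3.62, 5.68 and 3.48 FPKM in the same order, and COL1A2, COL3A1 and DCN stayed at or under 0.53 FPKM. The summed level of the 5 was 12.1 to 21.9 FPKM in control, 1.1 to 15.8 FPKM at 10 mM and 4.13 to 9.41 FPKM at 16 mM, so the 16 mM libraries lay below the controls, and its part in the results was not tested. Leukocyte markers summed to at most 0.65 FPKM and endothelial markers to at most 0.07 FPKM in any library. All 10 mM averages and ranges of these markers include library 1.

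**Figure D1:**
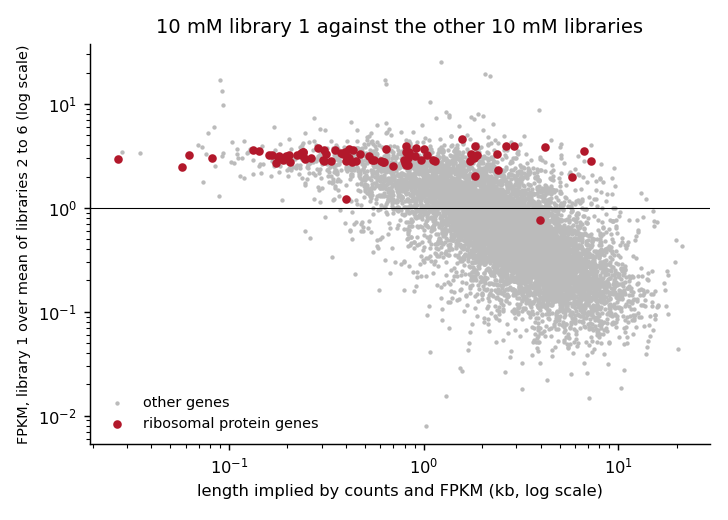
Each point is a gene with at least 5 FPKM on average in 10 mM libraries 2 to 6, with the length implied by its counts and FPKM in kb on the x axis and the FPKM of library 1 divided by the mean of libraries 2 to 6 on the y axis, both on log scales. Ribosomal protein genes (red) have a median ratio of 3.12, and genes of 2 kb and over have a median of 0.401.

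The 84 genes made up a large share of the messenger RNA in every group. Their share of summed TPM (a unit that, like FPKM, is scaled for transcript length) was 19.2 ± 0.198% in control (SD, n = 6), 18.2 ± 0.820% in 10 mM libraries 2 to 6 (n = 5) and 17.4 ± 1.05% at 16 mM (n = 5). Library 1 of the 10 mM group had 30.1%. The highest 16 mM library, at 18.6%, lay below the lowest control library, at 19.0%, while the 10 mM libraries 2 to 6 ranged from 17.5% to 19.4% and overlapped the controls. Within the 16 mM group, libraries 1 to 3 had 16.5% to 16.8% and libraries 4 and 5 had 18.5% to 18.6%. Both subunits had lower means at 16 mM: small subunit genes held 8.54 ± 0.500% at 16 mM and 9.44 ± 0.145% in control, and large subunit genes held 8.85 ± 0.551% at 16 mM and 9.80 ± 0.0764% in control. As a share of counts, which weights long genes more, the members made up 4.55 ± 0.104% in control, 4.25 ± 0.340% in 10 mM libraries 2 to 6 and 3.93 ± 0.410% at 16 mM, with 13.5% in 10 mM library 1. By this share the groups overlapped: the highest 16 mM library had 4.40% and the lowest control library 4.35%. A share is relative to the other messages of a library, and less RNA per cell and fewer cells cannot be told apart in such samples.

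**Figure D2:**
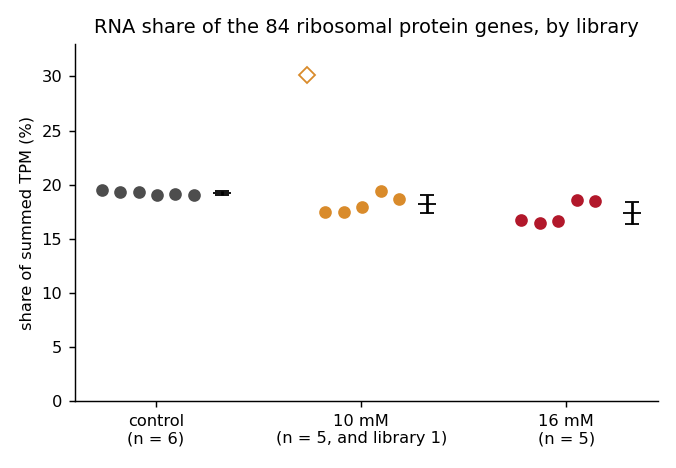
Share of summed TPM in the 84 ribosomal protein genes (y axis, percent) for each library (points) of control, 10 mM and 16 mM; bars are mean ± SD, and the open diamond is 10 mM library 1, which is left out of its group's bar. The 16 mM libraries lie at 16.5% to 18.6% and the controls at 19.0% to 19.5%.

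In control cells the mean level of the 83 members with at least 1 FPKM ran from 8.23 FPKM (RPS27L) to 3450 FPKM (RPS29), with a median of 1164 FPKM, and 47 of them exceeded 1000 FPKM. RPS29, RPS27 and RPL39 have implied lengths under 0.1 kb, at which FPKM depends strongly on the length assigned, so their rank among the members is uncertain. RPL3L, the striated-muscle form of RPL3, had 9 counts in all, spread over 6 libraries, and never exceeded 0.1 FPKM; it was not tested.

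RPL22L1 had the largest change of all tested members at 16 mM against control. This paralogue of RPL22, a large subunit protein that binds RNA and is known to restrain RPL22L1 expression, had 29.5, 41.4 and 54.1 FPKM (lowest, median and highest of 6) in control. At 10 mM libraries 2 to 6 had 8.03, 8.21, 8.08, 12.7 and 12.8 FPKM, and library 1 had 45.6 FPKM. At 16 mM it had 5.99, 6.55, 7.77, 8.52 and 6.89 FPKM. Every 16 mM library lay far below every control, and so did 10 mM libraries 2 to 6. The log2 change at 16 mM against control was -2.51 ± 0.58 (SE; edgeR adjusted p = 0.00283) over all 17 libraries and -2.51 ± 0.19 (edgeR adjusted p = 8.83e-09) without 10 mM library 1. At 10 mM against control it was -0.87 ± 0.51 over all libraries (edgeR adjusted p = 0.234) and -2.04 ± 0.19 without library 1 (edgeR adjusted p = 3.12e-07). Between 16 mM and 10 mM it did not pass the threshold, at -1.64 ± 0.56 with library 1 (edgeR adjusted p = 0.0598) and -0.47 ± 0.20 without it (edgeR adjusted p = 0.0646).

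The controls of RPL22L1 fell into their 2 sets, and the change was present in each. It was -2.92 ± 0.08 at 16 mM between libraries 1 to 3 of both groups and -2.02 ± 0.09 between 16 mM libraries 4 and 5 and control libraries 4 to 6 (edgeR adjusted p = 7.93e-13 and 2.83e-15). RPL22 itself had 122, 113, 122, 137 and 137 FPKM at 16 mM, against 146, 158 and 167 FPKM (lowest, median and highest) in control. Its groups did not overlap, and its log2 change of -0.30 ± 0.09 passed the threshold without 10 mM library 1 (edgeR adjusted p = 0.0069) but not with it (edgeR adjusted p = 0.599). RPL22L1 stood at 5.65 ± 0.669% of the FPKM of RPL22 at 16 mM (SD, n = 5) and at 26.6 ± 7.84% in control (n = 6).

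RPL7L1 moved the other way and was the only member higher at 16 mM by the test over all libraries. It resembles RPL7 and is related to Rlp7, an assembly factor of the large subunit known from yeast. Its level was 44.8, 47.3 and 53.6 FPKM (lowest, median and highest) in control. At 10 mM libraries 2 to 6 had 51.2, 52.4, 54.2, 66.7 and 70.5 FPKM, and library 1 had 45.4 FPKM. At 16 mM it had 70.1, 72.6, 72.2, 91.1 and 89.3 FPKM, with every library above every control. The log2 change at 16 mM against control was 0.75 ± 0.16 over all libraries (edgeR adjusted p = 0.00119) and 0.76 ± 0.13 without 10 mM library 1 (edgeR adjusted p = 4.76e-05), and it was 0.69 and 0.88 in the 2 sets. The 10 mM change did not pass the threshold (0.38 ± 0.15 with library 1 and 0.30 ± 0.13 without it; edgeR adjusted p = 0.0818 and 0.0639). Between the matched sets it did, at 0.23 ± 0.04 for 10 mM libraries 2 to 4 against control libraries 1 to 3 (edgeR adjusted p = 0.00013). For 10 mM libraries 5 and 6 against control libraries 4 to 6 it was 0.42 ± 0.05 (edgeR adjusted p = 2.22e-07). Between 16 mM and 10 mM the difference of 0.46 ± 0.13 passed the threshold without library 1 (edgeR adjusted p = 0.00919) and not with it (0.38 ± 0.16; edgeR adjusted p = 0.111). RPL7 did not pass it, with 755, 734, 725, 1069 and 1023 FPKM at 16 mM against 809.5, 985 and 1061 FPKM (lowest, median and highest) in control.

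RPS27L, a p53 target and paralogue of RPS27, had the lowest control mean of all tested members and was higher at 10 mM. It had 7.53, 8.11 and 9.03 FPKM (lowest, median and highest) in control, 12.7, 12.7, 13.9, 8.55 and 8.74 FPKM in 10 mM libraries 2 to 6, and 9.86, 9.02, 9.98, 6.21 and 7.08 FPKM at 16 mM. Library 1 of the 10 mM group had 22.2 FPKM. The 10 mM change against control was 0.98 ± 0.30 over all libraries (edgeR adjusted p = 0.0326) and 0.45 ± 0.12 without library 1 (edgeR adjusted p = 0.00447). It was 0.63 ± 0.05 between 10 mM libraries 2 to 4 and control libraries 1 to 3 (edgeR adjusted p = 1.84e-07), and 0.12 ± 0.06 in the other set (edgeR adjusted p = 0.0891), so 1 set carried most of it. Leaving out 1 control library at a time brought the adjusted p to between 0.0513 and 0.065. At 16 mM against control the change was 0.04 ± 0.32 (edgeR adjusted p = 0.936), with opposite signs in the 2 sets (0.18 and -0.21). RPS27 had 3519, 2977, 2775, 3349.7 and 2828 FPKM at 16 mM against 2956, 3321 and 3660.2 FPKM (lowest, median and highest) in control, and its groups overlapped.

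RPL26L1 fell at both doses once 10 mM library 1 was left out, while its partner RPL26 did not pass the threshold. RPL26L1 differs from RPL26 by few amino acids and is found in ribosomes. It had 65.9, 66.8, 74.4, 65.6 and 60.4 FPKM at 16 mM, against 84.8, 90.1 and 91.8 FPKM (lowest, median and highest) in control, with no overlap. The change was -0.41 ± 0.08 at 16 mM and -0.32 ± 0.08 at 10 mM without library 1 (edgeR adjusted p = 0.000282 and 0.00396), and -0.42 ± 0.47 and 0.69 ± 0.45 over all libraries (edgeR adjusted p = 0.532 and 0.279). RPL26 averaged 2497 ± 178 FPKM at 16 mM and 2574 ± 138 FPKM in control. RPL36AL, a retained copy of RPL36A, averaged 189.7 ± 3.91 FPKM at 16 mM and 172 ± 25.03 FPKM in control, and RPL39L, the copy of RPL39 best known from testis, averaged 33.5 ± 5.03 FPKM at 16 mM and 40.2 ± 8.96 FPKM in control; neither passed the threshold over all libraries (edgeR adjusted p = 0.861 and 0.412). RPL39 averaged 2244 ± 118 FPKM at 16 mM and 1963 ± 49.1 FPKM in control, with every 16 mM library above every control, but its change of 0.15 ± 0.08 without 10 mM library 1 did not pass the threshold (edgeR adjusted p = 0.082). Reads of near-identical copies can be split between genes by the authors' counting, so the values of all these pairs, and of members with many pseudogenes, carry that uncertainty.

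**Figure D3:**
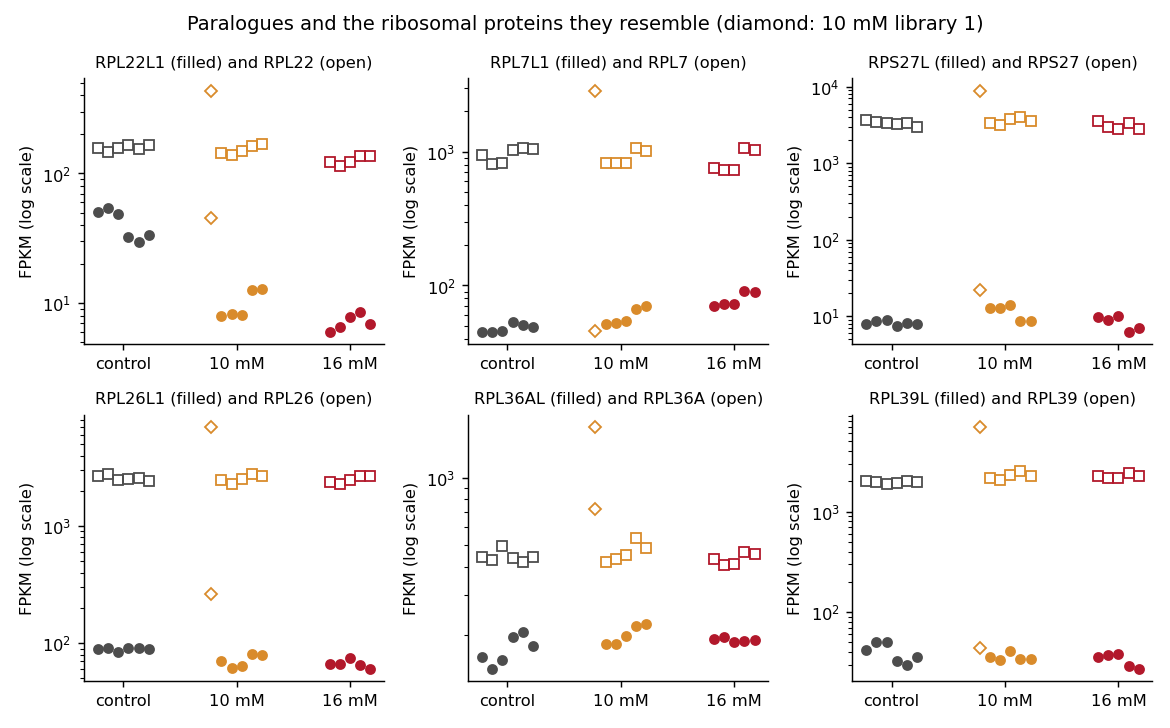
FPKM (y axis, log scale) of 6 paralogues (filled) and the ribosomal proteins they resemble (open) in each library of control, 10 mM and 16 mM; diamonds are 10 mM library 1. RPL22L1 lies at 5.99 to 8.52 FPKM at 16 mM against 29.5 to 54.1 FPKM in control, and RPL7L1 at 70.1 to 91.1 FPKM against 44.8 to 53.6 FPKM.

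Over all 17 libraries RPL7L1 and RPL22L1 were the only members called at 16 mM against control, 2 of 83 tested at an edgeR adjusted p under 0.05, while 35.3% of the 12564 genes tested were called (17.3% higher and 18.1% lower). The median log2 change of the 83 members was -0.14 and that of all genes tested was 0.00, and 72 of the 83 estimates were negative. Without 10 mM library 1, 25 members fell and 1 rose, against a background of 32.2% lower and 33.7% higher (65.9% in all) among 12545 genes, with a median of -0.13 over the members and 0.01 over all genes. The lower count lay near the background share, and the higher count lay under it. Of the 25, 14 belong to the large and 11 to the small subunit. FPKM did not overlap between groups in 25 members that were lower at 16 mM and in 2 that were higher, RPL39 and RPL7L1, against 22.4% and 23.8% of all genes. In the authors' deposited table, 25 members had a negative and 1 a positive log2 fold change at a q-value under 0.05 for this comparison, 25 and 1 of 84, against 25.4% negative and 25% positive of 16499 genes with a q-value there.

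Among canonical members the largest falls without 10 mM library 1 were those of RPS9, RPL3 and RPL41; these and the next few were singled out after their values were seen. RPS9, a small subunit protein at the site where the message enters, had 632, 665, 699.7, 779 and 732 FPKM at 16 mM, against 955, 1095 and 1159.8 FPKM (lowest, median and highest) in control. RPL3, which reaches toward the peptidyl transferase centre, had 1121, 1167, 1094, 1388 and 1369.8 FPKM at 16 mM, against 1754, 1908 and 1969 FPKM in control. RPL41, the smallest ribosomal protein, had 1632, 1504, 1639.8, 1760.0 and 1786 FPKM at 16 mM, against 2416, 2489 and 2603 FPKM in control. In none of the 3 did the groups overlap. Their log2 changes were -0.60 ± 0.09, -0.59 ± 0.11 and -0.58 ± 0.08 without 10 mM library 1 (edgeR adjusted p = 2.91e-05, 0.000202 and 9.74e-06). Over all 17 libraries the estimates were -0.61 ± 0.45, -0.60 ± 0.42 and -0.59 ± 0.47 and did not pass the threshold (edgeR adjusted p = 0.323, 0.296 and 0.356). RPL23 (-0.47 ± 0.11), RPL10A (-0.45 ± 0.08) and RPL13A (-0.43 ± 0.08), all of the large subunit, came next (edgeR adjusted p = 0.000981, 0.000133 and 9.39e-05 without library 1). RPL13A is known outside the ribosome for silencing inflammatory messages, and averaged 1334 ± 116 FPKM at 16 mM and 1829 ± 31.4 FPKM in control.

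**Figure D4:**
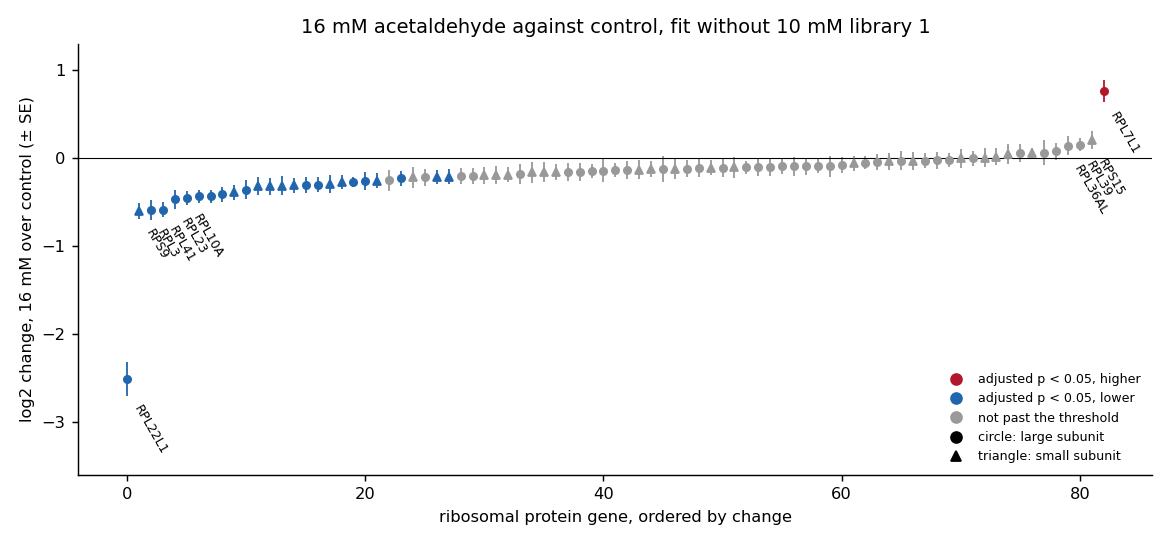
Log2 change at 16 mM over control (y axis; bars are ± SE from the edgeR fit without 10 mM library 1) for 83 ribosomal protein genes ordered by change; blue and red mark those past the adjusted p threshold. RPL22L1 (-2.51) and RPL7L1 (0.76) stand apart, and the other called members fell by 0.60 or less.

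The stalk and the members with known second roles gave the following values, all without 10 mM library 1. RPLP0, the base of the stalk that recruits elongation factors, fell by 0.36 at 16 mM (edgeR adjusted p = 0.00708), with 1329, 1332, 1288, 1683 and 1714 FPKM against 1804, 1921 and 1953 FPKM (lowest, median and highest) in control. The stalk proteins RPLP1 and RPLP2, which form dimers on RPLP0, averaged 439 ± 54.0 and 1784 ± 144 FPKM at 16 mM, against 497 ± 40.1 and 1797 ± 41.2 FPKM in control, and neither passed the threshold (edgeR adjusted p = 0.176 and 0.807). RPS6, the ribosomal protein phosphorylated downstream of mTOR, and RPS3, which also takes part in DNA repair, fell by 0.31 and 0.32 (edgeR adjusted p = 0.0186 and 0.0109). RPL5 and RPL11, which with 5S RNA can bind MDM2 and so link ribosome assembly to p53, did not pass the threshold (edgeR adjusted p = 0.0646 and 0.43), although RPL5 had 825 to 1043 FPKM at 16 mM against 1052 to 1104 FPKM in control. Neither did RPSA, the laminin-binding small subunit protein, RPS27A, which is made as a fusion with ubiquitin, or RPS19, the gene most often mutated in Diamond-Blackfan anaemia (edgeR adjusted p = 0.782, 0.113 and 0.407). Of 18 members linked to that anaemia, 3 fell and 0 rose; over all 17 libraries 0 of 18 passed the threshold. The share of all genes that fell was 32.2% and 18.1% in these fits.

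The size of the shift depended on the set of libraries. Relative to the mean of all controls, the median member lay at -0.31, -0.30 and -0.29 (log2) in 16 mM libraries 1, 2 and 3 and at 0.07 and 0.08 in libraries 4 and 5. At 10 mM it lay at -0.18, -0.14 and -0.17 in libraries 2, 3 and 4 and at 0.12 and 0.08 in libraries 5 and 6, and the control libraries lay between -0.13 and 0.08. With sets matched by number, which no label states, 70 members fell and 4 rose between libraries 1 to 3 of both groups (median -0.26). There 36.4% of all genes fell and 35.5% rose. Between 16 mM libraries 4 and 5 and control libraries 4 to 6, 21 members fell and 17 rose (median -0.01), where 39.5% of all genes fell and 38.6% rose. The count of members that fell was thus above the background in the first set and below it in the other. All 25 members that fell without 10 mM library 1 had a negative change in both sets, and 19 of them passed the threshold in both, as RPL7L1 did. These members were picked in a fit over the same control and 16 mM libraries, so the sets are no independent check of them. Of all 83 members, 43 were below 0 in both sets. The share of all genes that kept their sign was not counted. The changes of the 83 members in the 2 sets had a Pearson r of 0.896 across genes, and 0.751 without RPL22L1; genes are not independent replicates. When the libraries of each set were summed, so that each group had 2 or 3 values, 0 members and 0 of all genes were called with 10 mM library 1 included (edgeR; 0 members at an unadjusted p under 0.05), and RPL22L1 and RPL7L1 were called at 16 mM without it, 2 of 83 members against 25.8% of all genes.

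**Figure D5:**
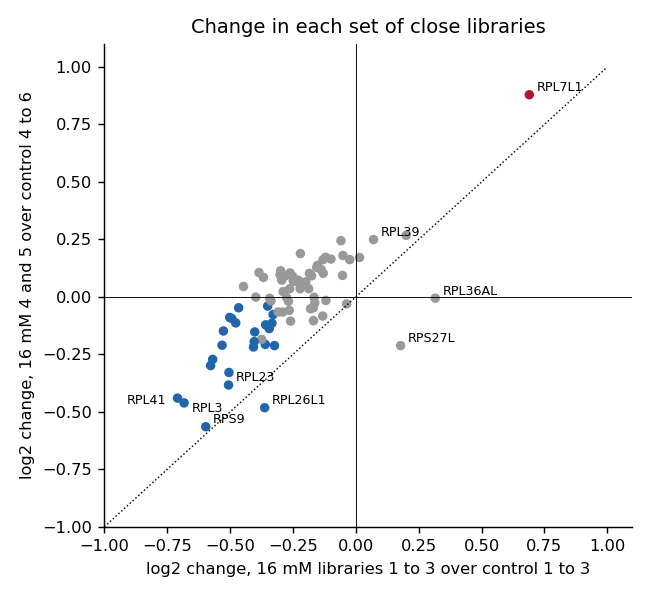
Log2 change at 16 mM over control for 82 ribosomal protein genes, between libraries 1 to 3 of both groups (x axis) and between 16 mM libraries 4 and 5 and control libraries 4 to 6 (y axis); the dotted line marks equal change and RPL22L1 (-2.92 and -2.02) lies outside the range shown. Blue and red mark members that fell or rose in the fit without 10 mM library 1. They keep their sign in both sets, but that fit used the same libraries, so this is no independent check. Most others are negative on the x axis and near 0 or above on the y axis.

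The median change of genes outside the family varied with transcript length, while the members' median was below 0 in each class of length. Without 10 mM library 1, the 46 members under 0.6 kb had a median log2 change of -0.10 at 16 mM against control, and the 454 other genes of that length had -0.12. The 16 members from 0.6 to 1 kb had -0.16, and the 707 other genes had -0.13. From 1 to 2 kb the 12 members had -0.20 and 2737 other genes had 0.00, and from 2 kb upward the 9 members had -0.19 and 8560 other genes had 0.04. Among the members the classes over 1 kb thus had the lower medians, and among other genes the classes under 1 kb had them. The part of length in the members' shift was not tested.

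At 10 mM against control, a comparison that shares the control libraries with that of 16 mM, the result turned on library 1. Over all 17 libraries RPS27L was the 1 member called, against a background of 18.7% of genes (9.41% higher and 9.3% lower), the members' median log2 change was 0.83, and 82 of 83 estimates were positive. Without library 1 the median was -0.06, 8 members fell (RPL22L1, RPL3, RPS9, RPL10A, RPL26L1, RPL41, RPL13A and RPL31) and 2 rose (RPS27L and RPL39), against a background of 22.8% lower and 22.4% higher (45.2% in all). RPL3 had 1258, 1277, 1254, 1659 and 1414 FPKM in 10 mM libraries 2 to 6 and RPS9 had 808, 792, 797, 908 and 773 FPKM, all below the lowest controls of 1754 and 955 FPKM. Their changes were -0.45 ± 0.11 and -0.39 ± 0.09 without library 1 (edgeR adjusted p = 0.00391 and 0.00298), and 0.36 ± 0.40 and 0.55 ± 0.43 with it. RPL39 rose by 0.25 ± 0.08 without library 1 (edgeR adjusted p = 0.0112), and its change over all libraries was 1.22 ± 0.44 (edgeR adjusted p = 0.0591). FPKM did not overlap in 13 members that were lower and 1 that was higher than control, against 14.2% and 15% of all genes. The 8 members that fell did so in both sets, which are parts of the libraries in which they were picked. This is no independent check, and the share of all genes that fell in both sets was not counted.

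Between 16 mM and 10 mM, 0 members were called over all 17 libraries by edgeR, and 14.1% of all genes were called (6.69% higher and 7.46% lower). By the DESeq2 Wald test 2 members were lower, where 14.5% of all genes were called. At an unadjusted edgeR p under 0.05 there were 65 members with 10 mM library 1 and 16 without it. The share of all genes at that cut was not counted. The median was -0.98 with 10 mM library 1 and -0.09 without it. Without it 9 members were lower (RPL22, RPL23, RPL28, RPL31, RPL38, RPL41, RPS27, RPS27L and RPS29) and RPL7L1 was higher, against a background of 20.9% lower and 23.2% higher (44.1% in all). RPS27L was lower at 16 mM than at 10 mM by 0.40 on the log2 scale (edgeR adjusted p = 0.0133).

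Other genes of the translation machinery did not all move with the ribosomal proteins. Beside the counts below, 17.3% of all genes rose and 18.1% fell over all libraries, and 33.7% rose and 32.2% fell without 10 mM library 1. Of 19 tested messages outside the members that are known to carry a terminal oligopyrimidine tract, 6 fell at 16 mM against control over all libraries and 12 without 10 mM library 1, and 0 rose in either fit. PABPC1, the poly-A binding protein, had 306, 319, 308, 298 and 296 FPKM at 16 mM, against 455, 466 and 498 FPKM (lowest, median and highest) in control, a change of -0.61 over all libraries (edgeR adjusted p = 6.63e-05). EIF2S3, a subunit of initiation factor eIF2, and EIF4B, a helper of the helicase eIF4A, fell by 0.57 and 0.42 (edgeR adjusted p = 0.00134 and 0.0021). Of 28 initiation factors, EIF2S3 again among them, 1 rose and 1 fell over all libraries, and 17 rose and 3 fell without 10 mM library 1. The initiation factors EIF3E, EIF3F, EIF3H, EIF3L, EIF4A2 and EIF4B were counted only among the 19 messages above. The contrast between the 2 lists therefore depends in part on how these factors were assigned. EIF4G1, the scaffold of the cap-binding complex, had 172, 182, 177, 206 and 209 FPKM at 16 mM against 96.3, 105 and 114 FPKM in control, a rise of 0.86 (edgeR adjusted p = 0.000383). Of 13 chaperones and import factors of ribosomal proteins, 3 rose and 1 fell over all libraries (7 and 1 without library 1). NAP1L1 and BTF3 of this list are also among the 19 messages above. LTV1, an export factor of the small subunit, rose by 0.79 and the histone chaperone NAP1L1 fell by 0.57 (edgeR adjusted p = 0.0102 and 0.00849). Of 20 genes of ribosome stalling and quality control, 6 rose and 2 fell (8 and 4 without library 1): GCN1, a sensor of collided ribosomes, rose by 0.64, and MAP3K20, the kinase ZAK that signals from stalled ribosomes, and TCF25, a part of the complex that marks stalled chains, fell by 0.66 and 0.73 (edgeR adjusted p = 0.000582, 2.97e-05 and 3.89e-05). Of 11 regulators of messages with such a tract, mTOR and LARP1 among them, 3 rose and 1 fell (6 and 3 without library 1). Of 6 genes linking the 5S particle to p53, 0 passed the threshold over all libraries, and 3 rose without library 1. The members RPL5 and RPL11 are among these 6, and so is HEATR3, which is also in the list of chaperones. For comparison, of 79 mitochondrial ribosomal protein genes 2 rose and 3 fell over all libraries, and 25 rose and 25 fell without library 1, near the background each way, with a median of 0.03.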

How the data were processed

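Poly-A RNA from 17 libraries was sequenced by the authors; groups were read from the titles. Per the submitters' processing notes, RSEM 1.3.1, Bowtie2 2.3.4.3, HISAT and DESeq2 1.4.5 are named with GRCh38.p13, and their roles are not. The deposited read counts, so named per the file headers, are estimated counts, since 13.1% are not whole; their totals differ between libraries, and they were treated as not normalized. Deposited FPKM and TPM values are so named per the file headers. The authors' deposited log2 fold changes, p-values and q-values were used only where that table is named. Counts were rounded and tested with edgeR 4.0.16 (R 4.3.3; TMM, filterByExpr, quasi-likelihood, two-sided, 14 residual degrees of freedom) over all genes, with Benjamini-Hochberg adjustment at 0.05. The SE of an edgeR estimate is its size over the root of F, since edgeR prints none. The same fit without 10 mM library 1 had 13 residual degrees of freedom. Alternatives used limma 3.58.1 and DESeq2 1.42.0. The edgeR and limma fits were also run on simulated data that held no close sets and no library like 10 mM library 1. That run therefore does not cover the effect of either on the calls.

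The members and lists were chosen with earlier results of these data known. Named genes were, per comparison, the largest called changes each way with at least 5 FPKM, all paralogues with their partners, fixed anchors, and called members of each list with the smallest p. Part of them is named. The same rule was applied without 10 mM library 1 after values were seen. Promoter sequences are RefSeq GRCh38.p14, matched by symbol for 67 of 84 members. Strandedness is not stated in these sources, so antisense genes cannot be told apart. Ribosomal proteins under other names are not reported here.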

Additional observations from a re-analysis of the deposited data

Results flagged for a closer look

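A gap of 1 library to the nearest of its group, as a share of the group's whole range, was above Dixon's 95% critical value in 37 of 117 groups of values tested; chance flags about 1 in 20. In 27 of them the library was 10 mM library 1 as the highest. Its gap was 0.924 of the range for the share of counts and 0.851 for the share of TPM. Among paralogues and partners it was 0.874 for RPL22L1, 0.905 for RPL22, 0.902 for RPL26L1, 0.897 for RPL26, 0.853 for RPS27, 0.924 for RPL36AL, 0.906 for RPL36A, 0.900 for RPL39, 0.877 for RPL7 and 0.852 for RPL3. Among the other members it was 0.930 for RPS9, 0.931 for RPL41, 0.937 for RPL10A, 0.969 for RPL13A, 0.917 for RPL23, 0.910 for RPLP0, 0.911 for RPLP1, 0.934 for RPLP2, 0.899 for RPL5, 0.910 for RPL11, 0.891 for RPS6, 0.903 for RPS3, 0.913 for RPSA, 0.890 for RPS27A and 0.968 for RPS19. The same library was the lowest of its group for PABPC1 (0.804), EIF2S3 (0.809), EIF4B (0.877), MAP3K20 (0.799) and GCN1 (0.885). RPL7L1, RPS27L and RPL39L were not among the members in which it lay apart by this measure. In the control group a library lay apart as the lowest for the share of counts (0.654) and for RPLP0 (0.724), and a library as the highest for RPL36A (0.665), RPLP2 (0.707) and RPS19 (0.764).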

How the results depend on the processing

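Counts of called members depended on 10 mM library 1. At 16 mM against control the count was 26 of 83 without it, 26 with only the 2 groups compared, 26 with DESeq2 size factors, 37 with total counts and 37 with limma on log2(FPKM + 1), all of these last 3 without it. It was 74 in libraries 1 to 3, 38 in the other set, 0 with close libraries summed, and 2 to 26 when 1 library was left out in turn (2 for each library other than 10 mM library 1). Of all genes, 65.9% were called without library 1 and 64.3% with only the 2 groups compared. The shares were 65.8%, 64.1% and 65.4% with these 3 alternatives, and 71.9% and 78.0% in the 2 sets. At 10 mM against control it was 10 without library 1 (45.2% of all genes), and 9, 16 and 17 with the same 3 alternatives. Each of these 3 called at least 43.1% of all genes. With all libraries it was 2 with total counts (14.7%) and 2 with limma on log2(FPKM + 1) (16%). The count was 0 with only the 2 groups compared (12.4%), control libraries 1 to 3 only (13.7%) or 4 to 6 only (6.57%). With close libraries summed it was also 0, and 0 of all genes were called. It was 49 and 43 in the 2 sets (63.7% and 61.7% of all genes) and 0 to 10 when 1 library was left out. Between 16 mM and 10 mM it was 10 without library 1 (44.1% of all genes). It was 10, 18 and 12 with the same 3 alternatives (44.1%, 40.8% and 42.6% of all genes). With all libraries it was 1 with total counts (9.57%), upper-quartile normalization (12.7%) or limma in 3 settings (7.82% to 11.2%). It was 2 with the DESeq2 Wald test (14.5%). It was 48 and 25 in the 2 sets (54.4% and 64.4% of all genes) and 0 to 10 when 1 library was left out.

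Medians moved less at 16 mM against control: -0.22 with upper-quartile normalization, -0.22 with control libraries 4 to 6 only, -0.26 and -0.0056 in the 2 sets, and -0.21 to -0.10 when 1 library was left out. At 10 mM against control the median reversed to -0.056 without library 1, -0.055 with DESeq2 size factors, -0.058 with total counts, -0.057 with limma and -0.026 with close libraries summed, all without it, and to -0.10 in the first set; it was 0.051 in the other set, 0.41 with total counts, 0.66 with upper-quartile normalization, 0.20 with limma in 3 settings, 1.34 with close libraries summed, and -0.056 to 0.98 when 1 library was left out. Between 16 mM and 10 mM it was -0.094 without library 1, then -0.11, -0.12 and -0.10 with the same 3 alternatives, -0.10 with close libraries summed, -0.15 and -0.053 in the 2 sets, -0.59 with total counts, -0.89 with upper-quartile normalization, -0.37 with limma in 3 settings, -1.47 with close libraries summed, and -1.12 to -0.094 when 1 library was left out. The share of counts is not comparable in size with the share of TPM, which averaged 19.2% in control, 20.2% at 10 mM with library 1 and 17.4% at 16 mM. Leaving out 1 library changed the share of counts to between 4.25% and 6.15% at 10 mM.

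Replicate numbers did not pair the libraries. With a replicate block, 0 members were called at 10 mM against control (median 0.43), where 14.5% of all genes were called. The median between 16 mM and 10 mM was -0.63. The block without 10 mM library 1 called 32 and 17 members at 16 mM and 10 mM against control (67.8% and 45.1% of all genes). It called 9 members at 16 mM against 10 mM (46.9% of all genes). Its medians were -0.064 at 10 mM against control and -0.055 between the doses.

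Some genes reversed. For 10 mM against control, RPL3, RPS9 and RPL26L1 were at -0.45, -0.39 and -0.32 without library 1, and also without it at -0.47, -0.41 and -0.34 with the replicate block, -0.41, -0.37 and -0.28 with close libraries summed, -0.45, -0.39 and -0.32 with DESeq2 size factors, -0.45, -0.38 and -0.32 with total counts and -0.46, -0.39 and -0.33 with limma. They were at -0.50, -0.30 and -0.42 in the first set, -0.34, -0.44 and -0.17 in the other, and -0.20, -0.10 and -0.021 to -0.023 with limma in 3 settings over all libraries; RPL3 was at -0.036 with total counts. Leaving out 1 library gave -0.45 to 0.50, -0.39 to 0.70 and -0.32 to 0.85. For 16 mM against control, the set of control libraries 4 to 6 gave 0.10 for RPL26, 0.12 for RPL36A, 0.035 for RPL7, 0.11 for RPLP1, 0.13 for RPLP2, 0.036 for RPL11, 0.19 for RPSA, 0.045 for RPS27A, -0.21 for RPS27L and -0.0056 for RPL36AL, and the first set gave -0.051 for RPS19. RPL36AL was at -0.081 with control libraries 4 to 6 only, RPL7 at 0.064 with 1 to 3 only, RPS19 at -0.030 and RPS27L at -0.030 with upper-quartile normalization, and RPS27L at -0.058 with the replicate block. Close libraries summed gave -2.00e-05 for RPS27L, 0.0030 for RPL36A, 0.0022 for RPLP2 and 0.0098 for RPSA, and without library 1 -0.0061 for RPS27L and 0.00094 for RPSA. Leaving out 1 library gave -0.013 to 0.12 for RPS27L, -0.070 to 0.013 for RPL36A, -0.084 to 0.0096 for RPLP2 and -0.12 to 0.014 for RPSA. Except for library 1 and the sets, whose construction differs in the libraries used, the cause of these moves was not tested. The sets, sums and normalizations without library 1, other than the block and the plain fit, were chosen after seeing the data. RPL22L1 and RPL7L1 kept the direction of their 16 mM change under every alternative run and lost the call only with close libraries summed over all 17.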
